A study of Mus musculus with 122 samples.

Results

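The 9 libraries described here are the untreated RNA sequencing libraries of 4 mouse embryonic stem cell lines, chosen by their labels out of 38 libraries in the expression table and 122 samples in the series. All 4 lines derive from E14Tg2a, a 129/Ola XY line, and share 2 modifications, endogenous CTCF fused to an auxin-inducible degron (AID) and the F-box protein Tir1, so that the auxin indole-3-acetic acid (IAA) can trigger degradation of CTCF. The lines differ in the doxycycline-inducible, FLAG- and mRuby-tagged transgene at the Tigre locus: CTCF in the CTCF line (2 libraries), CTCFL in the CTCFL line (3 libraries), CLC, a CTCF whose zinc fingers were replaced by those of CTCFL, in the CLC line (2 libraries), and LCL, a CTCFL with the zinc fingers of CTCF, in the LCL line (2 libraries). Neither IAA nor doxycycline was added to these 9 cultures, so neither degradation of CTCF nor the transgenes had been induced. The comparison set out here is between pairs of lines, the CTCF and CTCFL lines (5 libraries) against the CLC and LCL lines (4 libraries). It measures how the lines differed before any treatment.

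Each line was expanded from single colonies, and which clone a library came from was not given in the sources used here, so clone, time of derivation, library batch and the transgene cannot be told apart between lines. The growth protocol lists serum, leukemia inhibitory factor, the GSK3 inhibitor CHIR99021 and the MEK inhibitor PD0325901 for every line. Only the column headers of the CLC and LCL libraries carry the tag 2i, the usual name for that pair of inhibitors. Medium and line cannot be told apart either. The libraries of 1 line share a source, so p-values from the fit over 9 libraries cover the spread between libraries of a line and not the spread between clones. Counts from a fit on the 4 line means, 2 lines against 2, are therefore given beside the counts between the pairs.

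CTCF is the zinc finger protein that stops loop extrusion by cohesin at its binding sites, and CTCFL (BORIS) is its paralogue, normally expressed in the male germ line. Mouse embryonic stem cells fluctuate between states. Cultures in serum contain cells that prime towards primitive endoderm, the extraembryonic lineage marked by the GATA factors, and rare cells that express genes of the two-cell embryo, while the inhibitors of MEK and GSK3 hold cells in the naive state. Long culture of embryonic stem cells can also change imprinted expression and the number of single chromosomes.

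Between 18.8 and 48.1 M reads per library (M, 1e6) were recovered from the deposited values. The value used throughout is the normalised read count, the number of reads on a gene divided by a size factor per library. The size factors left totals of 25.3 to 25.5 M in the CTCF and CTCFL lines and 29.7 to 31.3 M in the CLC and LCL lines. Libraries of the same line had Pearson correlations of 0.981 to 0.994 across the 16105 genes tested, libraries of 2 lines of a pair 0.960 to 0.977, and libraries of different pairs 0.911 to 0.930. The 2 CLC libraries were closer than any other replicates. Their mean squared difference per gene was 1.35 times the variance that read sampling alone gives, against 9.02 to 24.0 times in the other lines. Whether they came from separate cultures was not given in the sources used here. The main counts of genes called are therefore also given with the 2 averaged as 1 sample. All 10 markers of embryonic stem cells taken for this check were expressed in every library, among them Pou5f1 at 16289 to 18480.3 in the CTCF and CTCFL lines and 28845 to 30441 in the CLC and LCL lines.

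Over all genes, the 2 pairs of lines stood far apart. A gene was called where the Benjamini-Hochberg adjusted p was under 0.01 and the log2 difference was above 1 in size. Of 16105 genes with a mean of at least 10, 4283 (26.6%) were called, 1158 higher (7.19%) and 3125 lower (19.4%) in the CLC and LCL lines. With the CLC libraries averaged, 4073 were called, 1065 higher and 3008 lower. Within pairs the counts were smaller. Between CTCFL and CTCF 467 genes (2.9%) were called, 217 higher (1.35%) and 250 lower (1.55%) in the CTCFL line. Between LCL and CLC 595 genes (3.69%) were called, 327 higher (2.03%) and 268 lower (1.66%) in the LCL line, a count that fell to 287 with the CLC libraries averaged and to 331 or 316 without CLC replicate 1 or 2. The count between CTCFL and CTCF fell to 276 without CTCF replicate 2. The fit on line means called 679 genes higher (4.22%) and 1300 lower (8.07%), and all of them were among the calls of the 9-library fit. Over all genes tested, the 4 libraries of CLC and LCL all lay above the 5 of CTCF and CTCFL for 23.7% and all below for 27.5%. The median log2 difference of all genes was -0.05, and 0.02 after rescaling the libraries by the trimmed mean of M values (TMM).

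**Figure D1:**
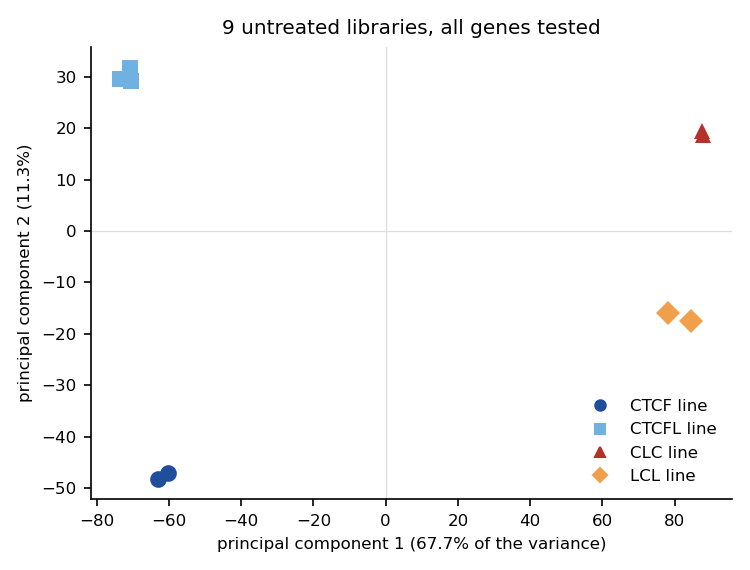
Principal components of log2(normalised read count + 1) over the 16105 genes tested, one point per untreated library, coloured by line. The first component, with 67.7% of the variance, places the 5 CTCF and CTCFL libraries on one side and the 4 CLC and LCL libraries on the other, and the second, with 11.3%, places the CTCFL and CLC libraries above 0 and the CTCF and LCL libraries below.

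Other libraries of the same lines, made after IAA (24 h in the sample labels, 2 days in the treatment protocol), were compared in the same way to see whether the gap between the pairs was also found there. Of 16373 genes tested in these 10 libraries, 24.8% were called, 971 higher (5.93%) and 3083 lower (18.8%) in the CLC and LCL lines. Of the 1158 genes called higher in untreated cells, 1117 were tested after IAA, 1087 had the same direction and 615 were called the same way. Of the 3125 called lower, 2932 were tested, 2908 had the same direction and 2175 were called the same way. 1 gene of each group was called the opposite way, Ntn1 and Sh3bp5. The IAA libraries come from the same lines, so they repeat the libraries and not the clones.

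The genes with the largest deficits in the CLC and LCL lines were near 0 there and well expressed in the other pair. Cubn, which encodes the endocytic receptor cubilin of the visceral endoderm and kidney (GRCm38 chr2:13276338-13491813 on the minus strand), had normalised read counts of 2756 and 3202 in the CTCF line, 3545, 3131 and 4037 in the CTCFL line, 13.5 and 16.6 in the CLC line and 29.6 and 22.8 in the LCL line. The log2 difference was -7.29 ± 0.11 (SE, limma adjusted p = 5.57e-14), and no library of one pair came near the other pair. Cyp26b1, an enzyme that degrades retinoic acid (chr6:84571414-84593908 on the minus strand), stood at 295 and 362 in the CTCF line, 473, 376 and 461 in the CTCFL line, 0 and 1.19 in the CLC line and 1.14 and 4.32 in the LCL line, a log2 difference of -7.40 ± 0.31 (adjusted p = 1.33e-10). Gap43, a growth cone protein, was at 485 to 711 in the CTCF and CTCFL lines and 2.53 to 24.7 in the CLC and LCL lines. Nxf7, of the family of mRNA export factors, was at 921 to 1208 against 7.12 to 34.2. The same held for Igf1, the insulin-like growth factor (117 to 203 against 0 to 7.98), Clic5, of the chloride intracellular channel family (188 to 284 against 0.620 to 8.30), and Habp2, a secreted protease (261 to 438 against 0.840 to 6.84). Glipr1, Fam151a, Pdzd3, Egflam and Cd247, the zeta chain of the T cell receptor complex, complete the 12 genes with the largest deficits, at log2 differences from -5.55 to -6.63. More than 50% of the exonic bases of Cd247 and Fam151a lie under exons of a gene on the other strand, Pou2f1 and Acot11, so their counts are less certain. All 12 were also called by the fit on line means. At values this close to 0 the log2 difference depends on the 1 added before the logarithm.

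Genes higher in the CLC and LCL lines included transcription factors and members of embryonic gene families, beside the Y-linked genes described further on. Foxd3, a forkhead factor of pluripotent cells and neural crest (chr4:99656299-99658622 on the plus strand), had normalised read counts of 58.5 and 60.8 in the CTCF line, 24.2, 27.7 and 62.7 in the CTCFL line, 2554 and 2573 in the CLC line and 1186 and 1712 in the LCL line. Its log2 difference was 5.36 ± 0.22 (adjusted p = 1.05e-10), and the lowest CLC or LCL library lay far above the highest of the other pair. Mgat4c, a glycosyltransferase gene, stood at 36.2 and 56.3 in the CTCF line, 76.8, 140.3 and 158 in the CTCFL line, 2515 and 2499.6 in the CLC line and 1100.3 and 1112 in the LCL line, with a log2 difference of 4.48 ± 0.19 (adjusted p = 1.05e-10). The homeobox gene Tlx2 was at 0 to 5.32 in the CTCF and CTCFL lines against 42.2 to 169.7 in the CLC and LCL lines. Nfe2, a basic leucine zipper factor known from blood, was at 0 to 13.8 against 136 to 219. Pramel6, of the PRAME-like family of the early embryo, was at 2.96 to 10.6 against 164 to 192, and Klhl34, Sh2d4b and Cd180 had log2 differences of 5.16, 4.21 and 4.14. These 8 genes were called by the fit on line means too. The mitochondrial gene mt-Atp8 is among the 12 largest only through LCL replicate 1, with 1438 there and 0 to 9.29 in the 8 other libraries. mt-Atp6, which overlaps mt-Atp8, showed the same library at 1283 and no other above 17.4.

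**Figure D2:**
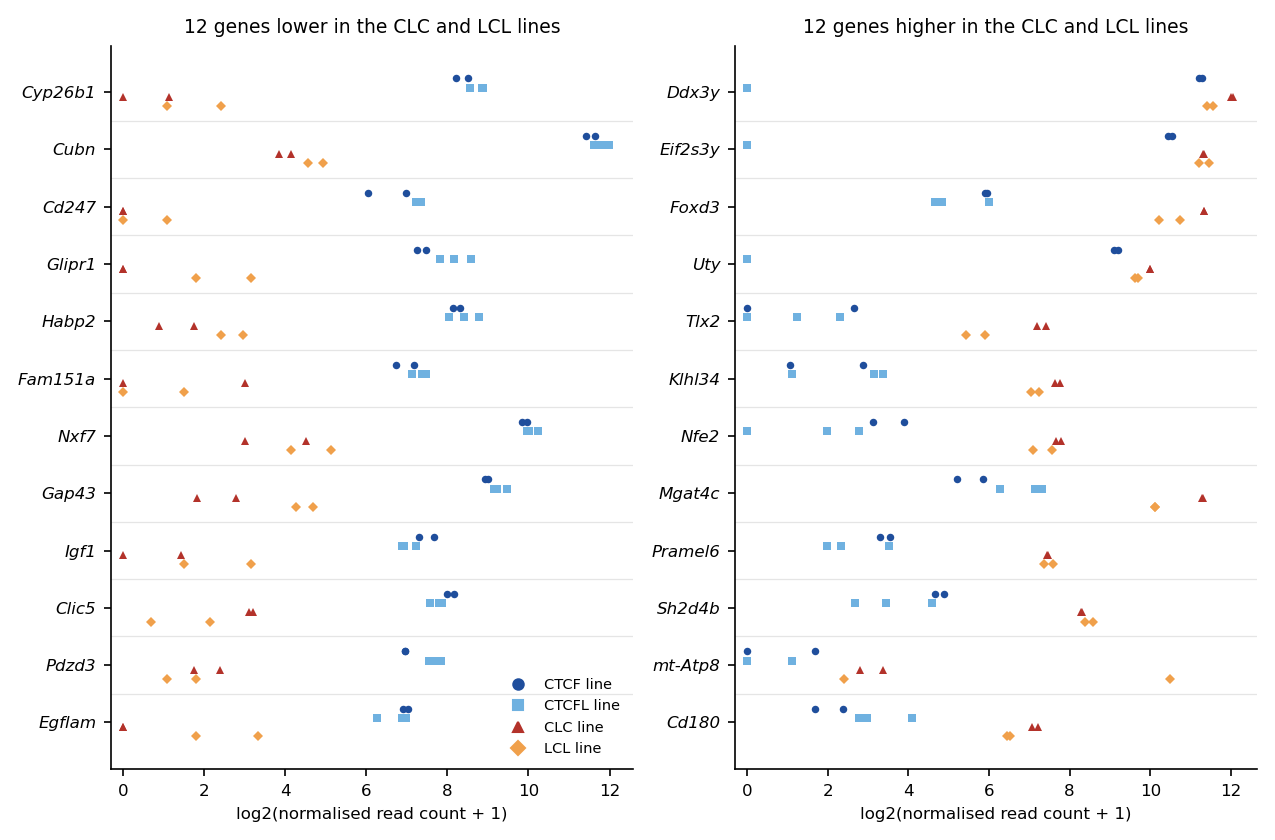
The 12 genes of largest log2 difference in each direction whose libraries did not overlap between the pairs, as log2(normalised read count + 1) by library, coloured by line. Cubn lies between 2756 and 4037 normalised reads in the CTCF and CTCFL lines and between 13.5 and 29.6 in the CLC and LCL lines; Ddx3y, Eif2s3y and Uty are at 0 in the 3 CTCFL libraries, and mt-Atp8 is high in 1 LCL library.

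Markers of primitive endoderm were lower in the CLC and LCL lines. Of 14 tested, 12 were called lower and 0 higher, against 19.4% lower over all genes, with a median log2 difference of -2.67 beside -0.05 over all genes. The same count, 12, was called by the fit on line means and in the IAA libraries. Gata6, which specifies the lineage (on chromosome 18), stood at 1067 and 994 in the CTCF line, 982, 1115 and 1060.2 in the CTCFL line, 41.4 and 32.03 in the CLC line and 34.2 and 42.6 in the LCL line. It differed by -4.77 ± 0.12 on the log2 scale (adjusted p = 1.49e-12), with no overlap. Pdgfra, the receptor used to sort primitive endoderm, had 1190.00 and 1320.2 in the CTCF line, 1378, 1544 and 1486 in the CTCFL line, 25.3 and 34.4 in the CLC line and 94.6 and 101 in the LCL line, a log2 difference of -4.63 ± 0.10 (adjusted p = 8.06e-13). The SOX factors of the lineage were lower in the same way, Sox17 at 261 to 323 in the CTCF and CTCFL lines against 21.4 to 58.04 in the CLC and LCL lines and Sox7 at 428 to 485 against 4.75 to 13.7. So were Gata4 (1304 to 1838 against 287 to 352), Foxa2 (51.9 to 155 against 0 to 16.7), the endocytic adaptor Dab2 (1493 to 2064 against 66.1 to 211) and Amn, the membrane partner of cubilin (166 to 225 against 42.2 to 63.6). Genes for the basement membrane that this lineage secretes were also lower, the laminins Lama1 at -2.63 and Lamb1 at -2.71 and the collagens Col4a1 at -2.23 and Col4a2 at -2.29 on the log2 scale. Hnf4a (-0.83) and Sparc (-0.79) did not pass the threshold on size. Summed over the 14 genes, the normalised read counts were 99261 to 124390 in the CTCF and CTCFL lines and 24598 to 31978 in the CLC and LCL lines. In bulk RNA, fewer cells of a type and less RNA per cell cannot be told apart.

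Genes of the two-cell stage were lower as well. Of 22 genes found, 11 passed the filter on low values, and these 11 were called lower, with a median log2 difference of -3.85. They passed the filter through the pair in which they were high, so this count is a description of those 11 and not of the list. The other 11 were too low to test, and 2 of them, Tcstv1 and Tdpoz1, were at 0 in all 9 libraries. Zscan4d, of the Zscan4 cluster that marks the two-cell-like state (chr7:11161374-11166159 on the minus strand), stood at 67.00 and 102 in the CTCF line, 29.6, 50.4 and 17.4 in the CTCFL line, 0 and 1.19 in the CLC line and 0 and 0 in the LCL line. Its log2 difference was -5.38 ± 0.47 (adjusted p = 1.66e-07). Counts are low on this list, and Zscan4 and Usp17l genes are near-identical copies among which reads can be split. Usp17le, a deubiquitinase gene of the same state, had 217 and 199.96 in the CTCF line, 59.2, 59.3 and 60.4 in the CTCFL line, 2.53 and 9.49 in the CLC line and 1.14 and 8.03 in the LCL line, a log2 difference of -4.44 ± 0.42 (adjusted p = 3.46e-07). In both genes the CTCF line was the highest, the CTCFL line lower and the CLC and LCL lines close to 0. Summed over the list, the range was 377 to 1169 in the CTCF and CTCFL lines and 46.8 to 106 in the CLC and LCL lines. The fit on line means called 7 of the 11, and all 11 were called lower after IAA. The same filter and the same lines apply there, so that count is a description too. Over all genes, 19.4% were called lower in untreated cells and 18.8% after IAA.

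Naive pluripotency genes went the other way. Of 17 tested, 8 were called higher and 0 lower, against 7.19% higher over all genes, and the median log2 difference was 0.79. The fit on line means called 7 of the 8, and 9 of the 17 were called higher after IAA. Nr0b1, a nuclear receptor of the naive network (chrX:86191764-86195947 on the plus strand), stood at 894 and 833 in the CTCF line, 890.1, 794 and 721 in the CTCFL line, 5047 and 5089 in the CLC line and 3221 and 3519 in the LCL line, a log2 difference of 2.31 ± 0.067 (adjusted p = 5.38e-12). Tcl1, a coactivator of AKT, was at 852 to 1260.2 in the CTCF and CTCFL lines against 3409 to 3704 in the CLC and LCL lines. The T-box factor Tbx3 was at 8789 to 10064 against 18682 to 26971 and Zfp42 (Rex1) at 11470.4 to 12662 against 25238 to 28104. Klf4 and Prdm14 were called at log2 differences of 1.04 and 1.05, and Manba and Fgfbp1 at 1.19 and 1.12. Of the 17 genes, 14 had all 4 CLC and LCL libraries above the 5 others, against 23.7% of all genes tested. Nanog (0.28), Esrrb (0.79) and Tfcp2l1 (0.62) lay above the other pair in all 4 libraries but below the threshold on size. Dppa3 was set apart by line and not by pair, with 3049.98 and 2411 in the CTCF line, 1597, 1621 and 1474 in the CTCFL line, 1589 and 1651 in the CLC line and 5832 and 5345 in the LCL line.

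Core and formative pluripotency genes were mixed, read against 7.19% called higher and 19.4% called lower over all genes. Of 12 core genes, Utf1 and Dppa2 were called higher and Lin28a lower, also by the fit on line means. Utf1, a chromatin protein of pluripotent cells, stood at 767 and 605 in the CTCF line, 901, 809 and 659.5 in the CTCFL line, 4391 and 4321 in the CLC line and 4389.97 and 5283 in the LCL line (log2 difference 2.65 ± 0.10, adjusted p = 3.33e-11). Lin28a, which blocks let-7 maturation, stood at 4072 and 4094 in the CTCF line, 4188, 3886 and 4035 in the CTCFL line, 1825 and 1793 in the CLC line and 1791 and 1902 in the LCL line (log2 difference -1.15 ± 0.050, adjusted p = 1.70e-10). Pou5f1 (0.78) and Sox2 (0.40) were not called. Of 15 formative genes tested 4 were called higher and 4 lower (4 and 3 by the fit on line means). Among the higher, beside Foxd3, were the factors Zic2 (1.76) and Otx2 (1.15), while Sox4 (-1.72), Lin28b (-1.40), Sox3 (-1.35) and the DNA methyltransferase Dnmt3a (-1.15) were lower. Of the exonic bases of Sox4, 54.6% lie under an antisense gene. The formative list thus had no common direction, though its share called higher was above the 7.19% over all genes.

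**Figure D3:**
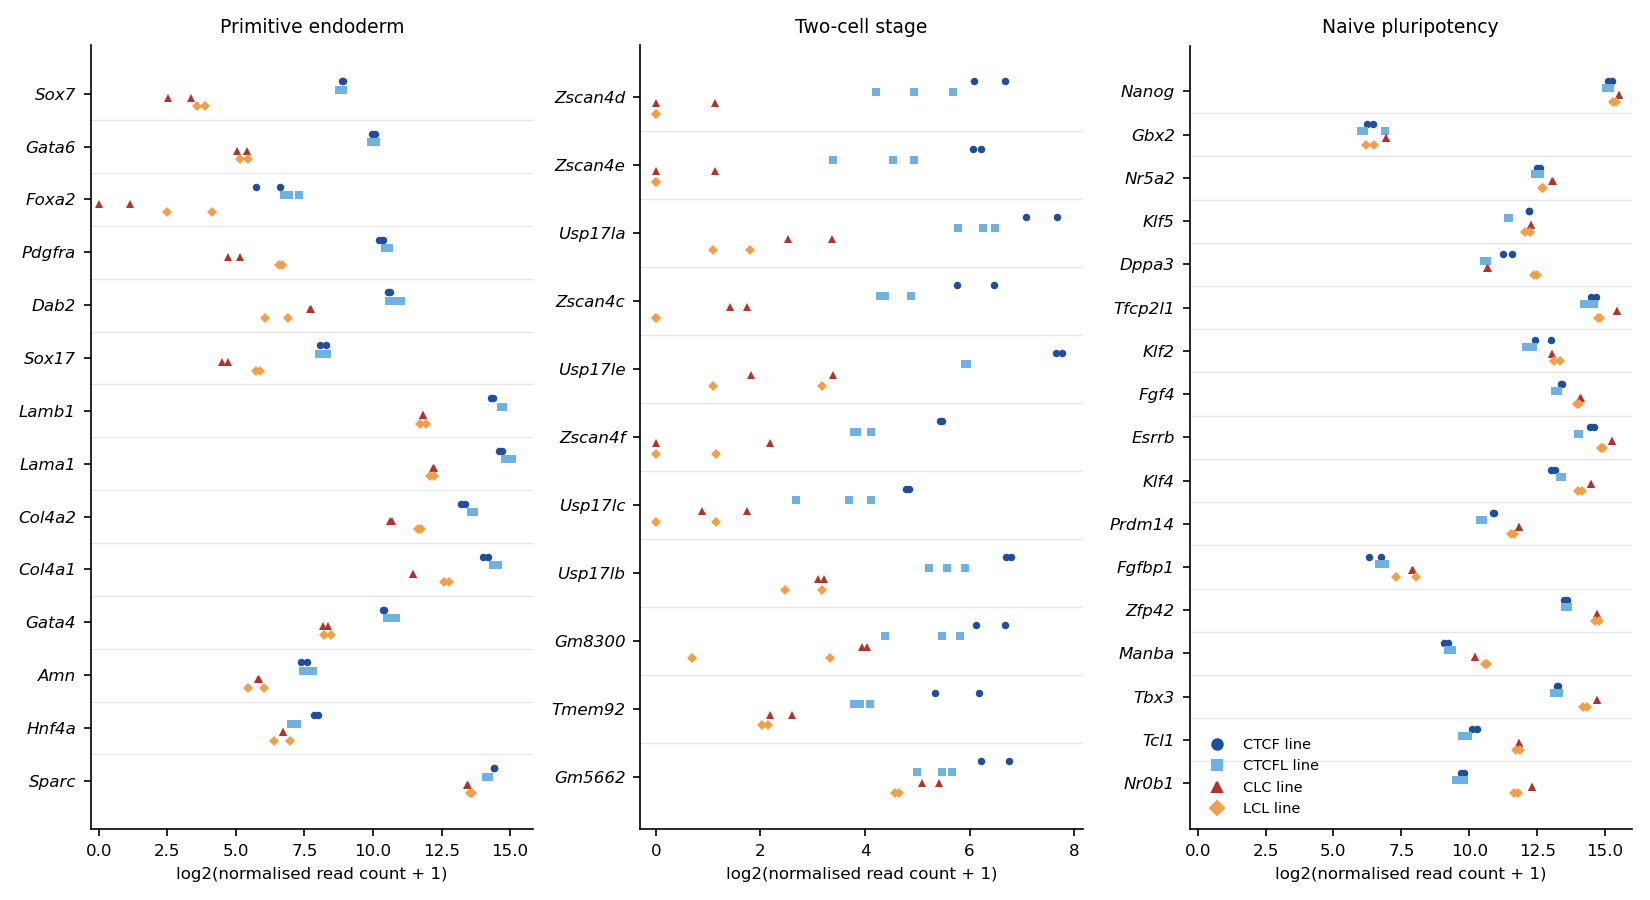
Tested members of 3 gene lists as log2(normalised read count + 1) by untreated library, coloured by line, ordered by the log2 difference between the pairs. The CLC and LCL points lie left of the others for all primitive endoderm genes and for all two-cell genes but Gm5662, and right of them for most naive genes.

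Feedback genes and targets of FGF and ERK signalling, which the MEK inhibitor acts on, were called in both directions, 6 higher and 2 lower of 23 (6 and 1 by the fit on line means), against 7.19% higher and 19.4% lower over all genes. Myc (chr15:61985391-61990374 on the plus strand) stood at 70.2 and 51.9 in the CTCF line, 65.98, 54.4 and 44.1 in the CTCFL line, 469 and 431 in the CLC line and 459.5 and 529 in the LCL line, a log2 difference of 3.02 ± 0.15 (adjusted p = 6.68e-10). The ETS factor Etv1 had 15.9 and 14.4 in the CTCF line, 30.97, 26.7 and 27.9 in the CTCFL line, 243 and 247 in the CLC line and 135 and 118 in the LCL line, a log2 difference of 3.02 ± 0.18 (adjusted p = 3.68e-09). All CLC and LCL libraries lay above all others for both genes. Dusp6, the phosphatase that removes ERK phosphorylation, was at 92.8 to 135 against 415 to 663, and the feedback inhibitors Spry4 and Spry2 had log2 differences of 2.49 and 1.15. Etv5 was higher too (1.84). The immediate early genes Fos (501 to 928 against 153 to 202) and Egr2 (20.2 to 58.1 against 2.28 to 4.75) were lower. After IAA, Myc stood at 64.3 to 165 in the CTCF and CTCFL lines and 71.6 to 131 in the CLC and LCL lines (log2 difference -0.12) and Dusp6 at a log2 difference of 0.26. Neither was called there, the list as a whole had 2 higher and 5 lower, and the difference between the conditions was not tested.

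Among Wnt targets, where the GSK3 inhibitor acts, 4 of 14 were called higher and 7 lower (2 and 5 by the fit on line means), against 7.19% higher and 19.4% lower over all genes. Dkk1, a secreted inhibitor of the pathway (chr19:30545863-30549665 on the minus strand), stood at 356 and 362 in the CTCF line, 300.3, 303 and 362 in the CTCFL line, 34.6 and 27.3 in the CLC line and 17.1 and 27.2 in the LCL line, a log2 difference of -3.67 ± 0.17 (adjusted p = 2.58e-10). Notum, a secreted enzyme that inactivates Wnt, had 85.1 and 61.9 in the CTCF line, 13.5, 46.4 and 34.8 in the CTCFL line, 174 and 179 in the CLC line and 424 and 599 in the LCL line, a log2 difference of 2.69 ± 0.28 (adjusted p = 1.05e-06). These 2 feedback inhibitors thus differed in opposite directions. Nkd1 (-2.13), Nkd2 (-2.45) and Rnf43 (-2.37), further inhibitors of the pathway, were lower. So were the transcription factors Lef1 (-1.21), T and Ascl2, and Fzd10, Apcdd1 and Cdx1 were higher by 1.21, 1.16 and 1.25. Axin2, the most used reporter gene of the pathway, was not called (0.31).

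Of 16 ligands and targets of Nodal, TGF-beta and BMP signalling, 5 were called higher and 2 lower, against 7.19% and 19.4% over all genes. By the fit on line means 5 were higher and 0 lower. The ligand Bmp4 (chr14:46383520-46390669 on the minus strand) stood at 162 and 156 in the CTCF line, 277, 227 and 244 in the CTCFL line, 1038 and 1027 in the CLC line and 786 and 856 in the LCL line, a log2 difference of 2.21 ± 0.087 (adjusted p = 6.83e-11). Id3, a target of BMP, had 25.5 and 17.7 in the CTCF line, 72.7, 42.5 and 29.03 in the CTCFL line, 395 and 416 in the CLC line and 293 and 327 in the LCL line, a log2 difference of 3.48 ± 0.23 (adjusted p = 9.13e-09). Nodal (1.40), Gdf3 (1.92) and the inhibitory Smad7 (1.74) were higher, and Id2 (-1.25) was among the lower. The Nodal antagonists Lefty1 and Lefty2 differed by line: Lefty1 stood at 466 and 402 in the CTCF line, 18.9, 29.6 and 34.8 in the CTCFL line, 70.1 and 66.4 in the CLC line and 111 and 169 in the LCL line. Its log2 difference between the pairs was -0.17 and not called, and 1.81 without the CTCF line. Lefty2 stood at 905 and 745 in the CTCF line, 70.02, 147 and 115 in the CTCFL line, 206 and 215 in the CLC line and 993 and 1032 in the LCL line. Of 13 genes downstream of LIF and STAT3, only Klf4 was called, and it was higher, a share near the 7.19% over all genes.

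Many imprinted genes were lower in the CLC and LCL lines. Of 32 tested, 17 were called lower and 1, Ddc, higher, against 19.4% and 7.19% over all genes, with a median log2 difference of -1.23. The fit on line means called 10 lower and 1 higher. Meg3, a maternally expressed long RNA of the Dlk1 cluster (chr12:109541001-109571726 on the plus strand), stood at 1603 and 1920.1 in the CTCF line, 2517, 2559 and 2847 in the CTCFL line, 166 and 161 in the CLC line and 243 and 250.1 in the LCL line, a log2 difference of -3.41 ± 0.074 (adjusted p = 5.97e-13). Rian (-1.74), Mirg (-2.27) and Dlk1 (-2.12) of the same cluster were lower too. At the H19 and Igf2 locus, whose imprint is read by CTCF, both genes moved the same way. H19 had 82.95 and 75.1 in the CTCF line, 16.2, 12.8 and 19.7 in the CTCFL line, 0 and 0 in the CLC line and 0 and 3.09 in the LCL line, a log2 difference of -4.70 ± 0.51 (adjusted p = 1.31e-06). Igf2 had 2438 and 2591 in the CTCF line, 1307, 1094 and 1195 in the CTCFL line, 219 and 174 in the CLC line and 181 and 171 in the LCL line, a log2 difference of -3.22 ± 0.086 (adjusted p = 3.21e-12). Cdkn1c, an inhibitor of cyclin-dependent kinases, was at 909 to 1149 against 169.9 to 239.8, and Peg10 at 1900.3 to 3763 against 724 to 1292.

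Some imprinted genes followed single lines. Peg3, a zinc finger gene expressed from the paternal allele (chr7:6703892-6730431 on the minus strand), stood at 1105 and 1247 in the CTCF line, 55.2, 87.95 and 67.3 in the CTCFL line, 0.840 and 1.19 in the CLC line and 53.6 and 40.8 in the LCL line. Within pairs it differed by -4.07 ± 0.28 between CTCFL and CTCF (adjusted p = 7.99e-07) and by 4.57 ± 0.31 between LCL and CLC (adjusted p = 8.13e-07), and it was not called by the fit on line means. Grb10, an adaptor of receptor tyrosine kinases, had 6804 and 7646 in the CTCF line, 405, 418 and 456 in the CTCFL line, 283 and 324 in the CLC line and 1615 and 1495 in the LCL line. Its level in the LCL line lay between those of the CTCF and CTCFL lines, so the pairs overlapped although the gene was called. Mest had 178 and 105 in the CTCF line, 24.2, 54.4 and 48.8 in the CTCFL line, 14.3 and 11.9 in the CLC line and 86.7 and 86.4 in the LCL line, again without a common level within a pair. In all, 7 imprinted genes were called between CTCFL and CTCF, 6 of them lower in CTCFL against 1.55% over all genes. Between LCL and CLC 4 were called higher in LCL, 3 with the CLC libraries averaged, against 2.03% over all genes.

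Germline genes that DNA methylation silences, a list of 26, had 10 members called lower and 0 higher (median log2 difference -0.81), against 19.4% lower and 7.19% higher over all genes, and 7 of the 10 were called by the fit on line means. Xlr3a (chrX:73086293-73097095 on the minus strand) stood at 1022 and 1178 in the CTCF line, 645, 673 and 786 in the CTCFL line, 33.8 and 30.8 in the CLC line and 144 and 131 in the LCL line, a log2 difference of -3.69 ± 0.10 (adjusted p = 4.19e-12). Sycp2, of the synaptonemal complex, was at 101 to 219 in the CTCF and CTCFL lines against 16.04 to 21.4 in the CLC and LCL lines, and Tdrkh, of the piRNA pathway, at 417 to 737 against 94.5 to 123. Dazl (-0.25), Ddx4 (-0.84) and Sycp3 (-0.63) were not called. Of 11 genes that write, read or erase DNA methylation 2 were called higher and 2 lower, also by the fit on line means. Tet2 (1.38) and Uhrf1 (1.29) were higher and Apobec1 (-1.53) and Dnmt3a lower. Dnmt3b (0.11) and Dnmt1 (0.45) were not called.

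Ctcf itself stood at 4712 and 4691 in the CTCF line, 4644, 5269.96 and 5278 in the CTCFL line, 8460.3 and 8319 in the CLC line and 9309 and 7829 in the LCL line, a log2 difference of 0.80 ± 0.062 (adjusted p = 4.53e-08). All CLC and LCL libraries lay above the others, by less than the threshold on size. Ctcfl stood at 141 and 172 in the CTCF line, 193, 225 and 206 in the CTCFL line, 41.4 and 42.7 in the CLC line and 36.5 and 27.2 in the LCL line, a log2 difference of -2.27 ± 0.16 (adjusted p = 1.78e-08), so it was lower in the CLC and LCL lines. Within the first pair the CTCFL line differed from the CTCF line by 0.41 ± 0.22 (adjusted p = 0.181). The counts do not separate the endogenous gene from the transgene. Of 19 genes of the CTCF and cohesin list, Smc1b (-2.20) and Rec8 (-1.68), the meiotic cohesin subunits, were called lower together with Ctcfl, and Cdca5 (sororin) higher (1.13), and the fit on line means gave the same 3 and 1. These counts are not above the 19.4% lower and 7.19% higher over all genes. Rad21 (0.86), Smc3 (0.23), Nipbl (-0.07) and Wapl (0.13) were not called.

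Lists of stress and metabolic genes were read against the 7.19% higher and 19.4% lower over all genes. Of 12 metallothioneins and NRF2 targets 6 were called higher and 0 lower, also by the fit on line means. Nqo1, a quinone reductase, stood at 364 and 341 in the CTCF line, 399, 459 and 484 in the CTCFL line, 2139 and 1950.3 in the CLC line and 1846 and 2066 in the LCL line, a log2 difference of 2.33 ± 0.076 (adjusted p = 1.46e-11), and Gsr, the glutathione reductase, was at 1937 to 2205 against 5581 to 6087. Of 20 genes of the amino acid and integrated stress response 7 were called lower and 2 higher (6 and 1 by the fit on line means). Atf3 (chr1:191170296-191218039 on the minus strand), a transcription factor induced by stress, stood at 559 and 615 in the CTCF line, 909, 799 and 858 in the CTCFL line, 27.9 and 34.4 in the CLC line and 59.3 and 51.2 in the LCL line, a log2 difference of -4.07 ± 0.11 (adjusted p = 4.40e-12). Ddit3 (CHOP) was at 519.8 to 738 in the CTCF and CTCFL lines against 51.5 to 85.5 in the CLC and LCL lines and Nupr1 at 2435 to 3484 against 329.8 to 429, whereas the biosynthetic enzymes Asns (1.20) and Cth (1.42) were higher. Of 21 genes of p53 and its targets 5 were called lower, among them Fas (-2.74) and Pmaip1 (-1.47), and Trp53 itself was the 1 called higher (1.35). The fit on line means kept 3 lower and 1 higher, and 5 of 21 is near the share of all genes. Cdkn1a (-0.61) and Mdm2 (-0.24) were not called.

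Of 21 hypoxia and glycolysis genes 5 were lower and 1 higher, with Vegfa at -1.85, the oxygen sensor Egln3 at -2.63 and Gapdh at 1.16. The fit on line means kept 4 lower and 0 higher (Gapdh adjusted p = 0.0137), and both shares are near those of all genes. Of 13 interferon-stimulated genes 4 were lower and 2 higher (2 and 1 by the fit on line means). Tap1, the peptide transporter of antigen presentation, was lower at 434 to 707 against 56.9 to 74.1, and Ddx58 (RIG-I), a sensor of viral RNA, was higher at 158 to 191 against 628 to 927. Cell cycle regulators had 2 higher and 3 lower of 23 (1 and 2 by the fit on line means), with the cyclin Ccnd2 at a log2 difference of -3.26 and the replication helicase subunit Mcm2 at 7908 to 8616 against 21283 to 24723 normalised reads. Heat shock chaperones had 2 higher of 13, Hspb1 (1204 to 1823 against 3431 to 4891) and Hsph1 (3062 to 4286 against 8028 to 12846), and cholesterol genes 2 lower of 20, of which the fit on line means kept both chaperones and 1 cholesterol gene. Of 83 cytosolic ribosomal protein genes 1 was higher and 1 lower, the tissue-restricted Rps4l and Rpl39l, also by the fit on line means. The clustered protocadherins (3 lower of 13), Hox genes (3 lower of 24) and replication-dependent histone genes (1 higher and 2 lower of 14) stood near or under the shares of all genes, and 0 of these calls were made by the fit on line means with limma.

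**Figure D4:**
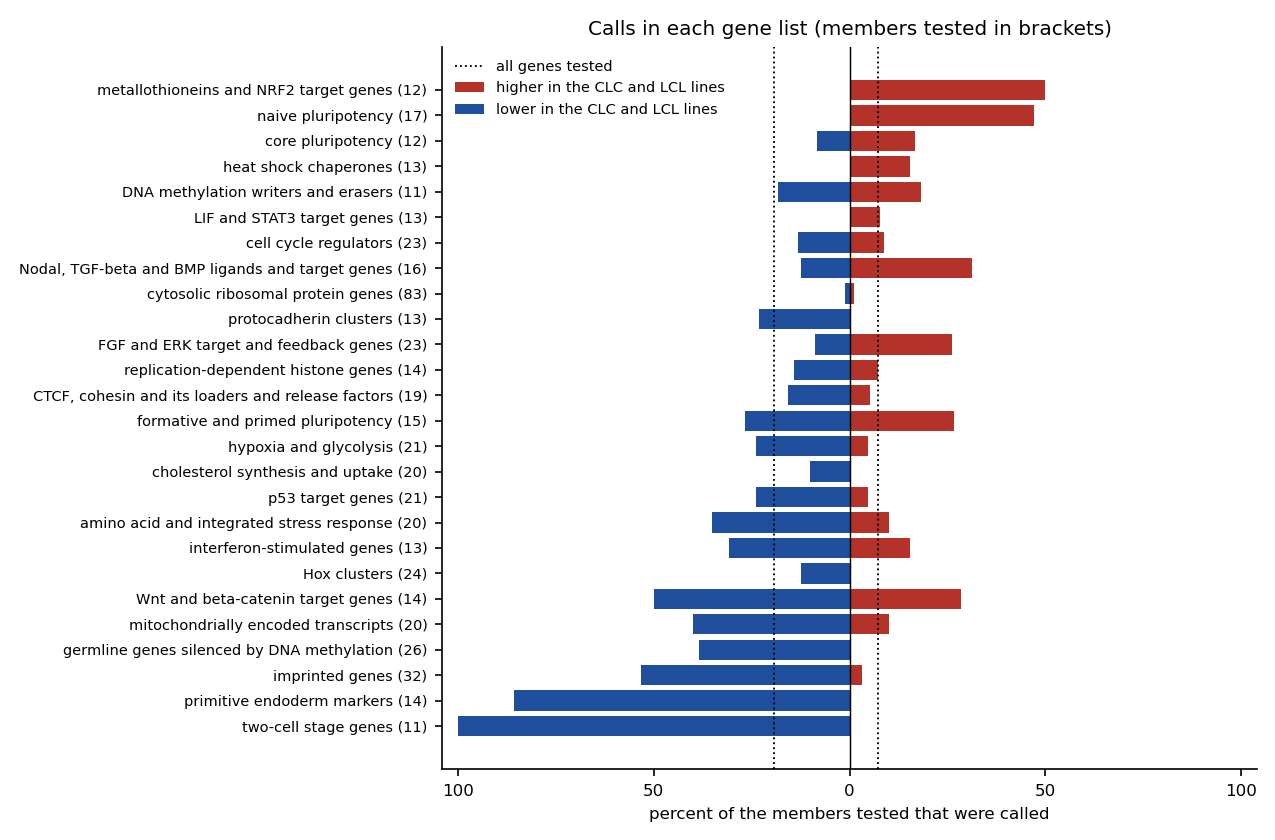
Percent of the tested members of each gene list with at least 10 members tested that were called higher (right) or lower (left) in the CLC and LCL lines, ordered by the list's median log2 difference. The dotted lines give the same over all genes tested, 7.19% higher and 19.4% lower; the primitive endoderm list reaches far to the left and the NRF2 and naive lists furthest to the right. The two-cell bar covers only the 11 members that passed the filter, through the pair where they were high.

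Markers of other cell types that the cultures could hold were read as whole lists, against 19.4% lower and 7.19% higher over all genes. Of 8 streak and mesoderm markers tested 3 were called lower and 0 higher, and 0 were called by the fit on line means, with summed levels of 500 to 672 in the CTCF and CTCFL lines and 348 to 488 in the CLC and LCL lines. The defining marker T was at 13.8 to 34.6 against 0 to 6.17. Mesp1, Evx1 and Fgf8 were too low to test and had no common direction. Mesp1 was at 1.06 to 15.1 against 0 to 0.62 and Fgf8 at 3.31 to 12.12 against 2.28 to 4.94. Evx1 went the other way, at 0 to 1.35 against 18.98 to 25.93. Trophectoderm markers had 5 of 9 called lower, 3 by the fit on line means (5321 to 6258 against 3472 to 4041 summed), with Ascl2 at 73.2 to 137 against 9.49 to 13.7 and Krt18 at 596 to 771 against 200.1 to 251. The defining markers Cdx2 and Elf5 were too low to test. Neuroectoderm markers had 2 higher and 3 lower of 7 (1 and 1 by the fit on line means), Tubb3 at 1.44 and Map2 at -3.24, and summed levels of 5102 to 6551 against 6382 to 6753. Feeder and fibroblast markers had 3 lower and 0 higher of 8 tested (2 lower by the fit on line means), Tagln, Thy1 and Col1a1. Their summed levels were 57408 to 68186 against 88733 to 119082. The sum takes in members that were not called, such as Vim, so it did not follow the calls. Which members made the sum higher is not given here. Lum, Dcn and S100a4 of this list were at 0 in all 9 libraries, and Col3a1 was at 0.99 to 10.4 against 3.56 to 9.12. The part of other cell types in the differences between the pairs was not tested.

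Single chromosomes differed between lines. For each library the median over the genes of a chromosome was taken of its log2 level minus the mean of the 4 lines. Of the chromosomes plotted, chromosome 11 was the widest apart within a pair, at 0.18 and 0.21 in the LCL libraries and -0.19 and -0.18 in the CLC libraries. Of its 1316 genes tested, 82.0% had a higher value in LCL than in CLC, and 88 (6.69%) were called higher there against 2.03% of all genes. With the CLC libraries averaged, 53 were called higher. Chromosome 6 was low in the CTCF line (-0.22 and -0.25) beside 0.002 to 0.022 in the CTCFL line and 0.10 to 0.17 in the CLC and LCL lines. On it 73.3% of 778 genes were higher in CTCFL than in CTCF, beside 71.5% on chromosome 1 and 36.8% to 58.7% on the rest. Of the genes of chromosome 6, 115 (14.8%) were called higher in the CLC and LCL lines against 7.19% of all genes. Chromosome 1 was high in the CTCFL line (0.24 to 0.28), at 0.08 and 0.09 in the CTCF line and below 0 in the other lines. On it 243 of 946 genes (25.7%) were called lower in the CLC and LCL lines, against 19.4% of all genes. Chromosomes 8 and 19 were high in the LCL line, at 0.15 and 0.16 and at 0.15 and 0.18, with the other lines between -0.09 and 0.02. The libraries of a line kept close together on each of these chromosomes. The same lines stood out on chromosomes 1, 6, 8, 11 and 19 in the IAA libraries. Gene copy number was not measured here.

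**Figure D5:**
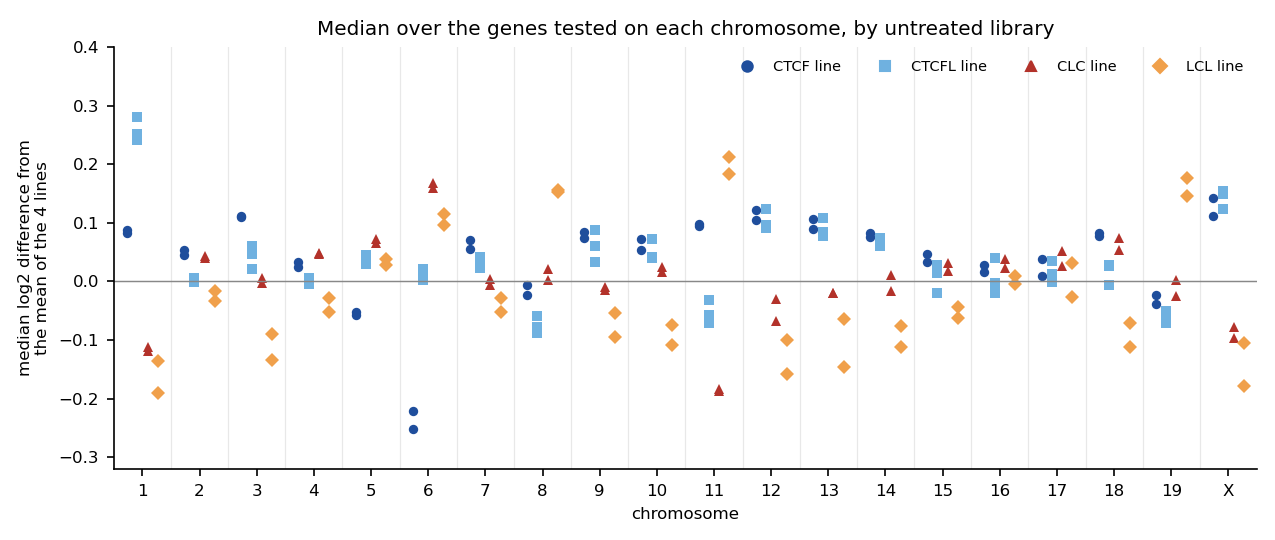
Median over the genes tested on each autosome and the X chromosome of the log2 level of a library minus the mean of the 4 lines, one point per untreated library, coloured by line. The CTCF line is lowest on chromosome 6 (-0.25), the CTCFL line highest on chromosome 1 (0.28), and the LCL line is above the others on chromosomes 8, 11 and 19.

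The largest differences between the CTCFL and CTCF lines were on the Y chromosome. The helicase gene Ddx3y (chrY:1260771-1286629 on the minus strand) stood at 2379 and 2489 in the CTCF line, 0, 0 and 0 in the CTCFL line, 4082 and 4213 in the CLC line and 2989.7 and 2693 in the LCL line. Eif2s3y, a translation initiation factor, had 1388 and 1472 in the CTCF line, 0, 0 and 0 in the CTCFL line, 2551 and 2549 in the CLC line and 2812 and 2344 in the LCL line. Uty, a histone demethylase paralogue, stood at 551 to 582 in the CTCF line, 782 to 1021 in the CLC and LCL lines and 0 in the CTCFL line. Uba1y and Zfy1 were likewise at 0 in the 3 CTCFL libraries. Zfy1 was high in the CTCF line alone, with a mean of 134 and a gap of 2.65 log2 units to all other libraries. Of 7 genes on the Y-linked list 4 were tested and 3 called higher between the pairs, against 7.19% of all genes. Kdm5d (0 to 27.65 against 0 to 1.19), Zfy2 (0 to 7.73 against 0 to 1.23) and Usp9y (0 to 4.25 against 7.41 to 18.24) were too low to test. With a floor of 3 reads per library, Ddx3y was at least 589-fold, Eif2s3y at least 344-fold and Uty at least 136-fold lower in the CTCFL line than in the CTCF line. Ddx3y, Eif2s3y, Uty, Uba1y and Zfy1 were also at 0 in the 3 CTCFL libraries after IAA. The labels give every line as XY. The calls of Ddx3y, Eif2s3y, Uty and Uba1y between the pairs rest on the CTCFL line, and none of them was called by the fit on line means. Zfy1 was not called between the pairs. The log2 difference of Uba1y was 3.48 with all lines and -0.70 without the CTCFL line. Without the CTCFL line, 3946 genes were called between the pairs.

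Further genes separated the CTCFL from the CTCF line. Isg20, an interferon-induced exonuclease (chr7:78913424-78920396 on the plus strand), stood at 37.2 and 33.1 in the CTCF line, 206, 225 and 260.1 in the CTCFL line, 23.6 and 27.3 in the CLC line and 28.5 and 15.4 in the LCL line, and the CTCFL line was above the CTCF line by 2.67 ± 0.29 (adjusted p = 2.77e-05). It was the 1 gene of at least 100 reads that lay apart upwards in the CTCFL line, and 0 of the 13 interferon-stimulated genes tested were called between these 2 lines by limma. The claudin gene Cldn15 was higher by 2.88 ± 0.44 (adjusted p = 0.000356). Id2, a target of BMP, stood at 93.6 and 86.2 in the CTCF line, 389, 361 and 318 in the CTCFL line, 98.8 and 88.98 in the CLC line and 59.3 and 58.6 in the LCL line, so the CTCFL line was above the 3 others. mt-Tl2, a mitochondrial tRNA, was at 1.06 to 2.21 in the CTCF line and 338 to 563 in the CTCFL line, and the processed pseudogene Gm45456 and the predicted gene Gm9844 were among the 5 with the largest excess in CTCFL. Reads of related copies can reach both.

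Several hypoxia and amino acid stress genes also split the first pair, with the CTCF line above the CTCFL line. Of 21 hypoxia genes 4 were called lower in CTCFL, Slc2a1, Bnip3, Ndrg1 and Ddit4, and 0 higher, against 1.55% lower over all genes. Bnip3, a mitophagy receptor (chr7:138890836-138909519 on the minus strand), stood at 2495 and 2334 in the CTCF line, 734, 677 and 608 in the CTCFL line, 395 and 395 in the CLC line and 1308 and 1389 in the LCL line. Slc2a1, the glucose transporter GLUT1, had 13865 and 14213 in the CTCF line, 5666, 5309 and 5156 in the CTCFL line, 6178 and 6269 in the CLC line and 7672 and 9405 in the LCL line. For Bnip3 the CTCF line was the highest and the CLC line the lowest, and LCL lay above CTCFL. Of 20 genes of the amino acid and integrated stress response 3 were called lower in CTCFL and 0 higher, against the same 1.55% lower over all genes. Chac1, a glutathione-degrading enzyme, stood at 1588 and 1490.3 in the CTCF line, 329, 358 and 423 in the CTCFL line, 149 and 147 in the CLC line and 265 and 396 in the LCL line. The ERK targets Etv4, Dusp4, Dusp5 and Fosl1 were higher in CTCFL than in CTCF. Etv4 differed by 1.73 ± 0.20 (adjusted p = 3.95e-05) and Dusp5 by 1.21 ± 0.17 (adjusted p = 0.000216). Of 23 FGF and ERK genes 4 were called higher in CTCFL, 3 with the CLC libraries averaged, against 1.35% over all genes. Fosl1 was at 8.51 and 16.6 in the CTCF line. Of its exonic bases, 57.2% lie under Ccdc85b on the other strand.

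The genes of largest difference between LCL and CLC were Rpl38-ps1, Alox12b, Ndufa4l2, Wdr74 and Ace, higher in LCL, and, among those lower in LCL, Vnn1, Cadps2, mt-Tl2 and Tmtc2. Ndufa4l2, a mitochondrial protein gene induced by hypoxia, stood at 1263 and 1194 in the CTCF line, 407, 439.7 and 438 in the CTCFL line, 57.4 and 54.6 in the CLC line and 509 and 529 in the LCL line and was higher in LCL by 3.19 ± 0.12 (adjusted p = 9.12e-09). In the CLC line it was below all other lines. Vnn1, a pantetheinase, had a log2 difference of -3.10 ± 0.32 (adjusted p = 2.35e-05), and Ace, on chromosome 11, was higher by 2.84 ± 0.29 (adjusted p = 1.83e-05). Of the 14 primitive endoderm genes 5 were called higher and 1 lower in LCL than in CLC (3 and 1 with the CLC libraries averaged), against 2.03% and 1.66% over all genes, and the lowest line was CLC for Pdgfra (25.3 and 34.4 against 94.6 and 101 in LCL) and LCL for Dab2 (117 and 66.1 against 205 and 211 in CLC).

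Genes that lay at least 2 log2 units from all libraries of the 3 other lines were counted for each line. The CTCF line had 47 such genes above the others and 2 below, the CTCFL line 4 and 10, the CLC line 1 and 35, and the LCL line 2 and 14. In the CLC line they included Hs3st1, a heparan sulfate sulfotransferase, at 499.8 and 399 in the CTCF line, 657, 588 and 579 in the CTCFL line, 11.8 and 10.7 in the CLC line and 96.9 and 98.8 in the LCL line, and Aire, the autoimmune regulator, at 246 and 386 in the CTCF line, 114, 127 and 142 in the CTCFL line, 10.1 and 9.49 in the CLC line and 67.3 and 109 in the LCL line. In the LCL line Neurl1b, a ubiquitin ligase gene, was at 11.1 to 11.4 against 49.8 to 57.4 in CLC and 116 to 157 in the first pair, and 2300002M23Rik was above the others at 119 and 141. After IAA, the line stood clear of all others for 47 of the 47 high and 2 of the 2 low genes in CTCF. It did so for 3 of the 4 high and 8 of the 10 low genes in CTCFL. In CLC it did so for 0 of the 1 high and 16 of the 35 low genes, and in LCL for 2 of the 2 high and 11 of the 14 low genes. The share of all genes tested for which a line stood clear after IAA is not given here, so these counts are a description only.

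Most of the 47 genes high in the CTCF line were non-coding and lay opposite another gene. Of the 47, 44 had an annotated type, 34 of these were not protein coding, and 38 of the 47 (80.9%) shared exonic bases with a gene on the other strand, against 27.6% of all genes tested. Gm17638, which has 49.5% of its exonic bases under Eif3d on the other strand (chr15:77961674-77967126 on the plus strand), stood at 279 and 228 in the CTCF line, 4.04, 0 and 4.64 in the CTCFL line, 2.53 and 5.93 in the CLC line and 2.28 and 6.17 in the LCL line. Gm37376, which lies wholly under Malat1 on the other strand, stood at 135 and 135 in the CTCF line, 4.04, 2.96 and 5.81 in the CTCFL line, 0 and 0 in the CLC line and 1.14 and 3.09 in the LCL line. Over 32 non-coding genes with at least 50% of their exonic bases under an exon of a gene of the other strand with a mean of at least 1000, the summed value was 3846 and 3141 in the CTCF line, 985 to 1196 in the CTCFL line and 808 to 897 in the CLC and LCL lines. The mitochondrial gene mt-Nd6, encoded on the strand opposite to most mitochondrial genes, followed the same order, at 4217 and 4127 in the CTCF line, 1279, 1911 and 1703 in the CTCFL line, 263 and 259.8 in the CLC line and 178 and 277 in the LCL line. The libraries were made by a strand-preserving method, the strand setting of the counting was not given in the sources used here, and the part of reads from the other strand in the values of the CTCF line was not tested. Leaving out the CTCF line, 4321 genes were called between the pairs.

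By annotated type, 936 of 13916 protein-coding genes were called higher and 2628 lower between the pairs, against 7.19% higher and 19.4% lower over all genes. Processed pseudogenes went mainly the other way (103 higher and 22 lower of 705, median log2 difference 0.45), and reads of their parent genes can reach them. Long intergenic RNAs were mainly lower (24 higher and 107 lower of 313), as were small nucleolar RNAs (0 higher and 14 lower of 40), which polyA selection captures poorly. Of the 3930 genes of longest exonic length, the top quartile, 176 were higher and 817 lower, and of the 3931 shortest 397 were higher and 683 lower. Of 20 mitochondrially encoded transcripts tested 2 were higher and 8 lower (0 and 5 by the fit on line means), and the list summed to 706926 to 933004 in the CTCF and CTCFL lines and 365159 to 713237 in the CLC and LCL lines. The part of library preparation in these differences was not tested, and batch and line cannot be told apart.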

How the data were processed

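RNA from polyA selection was sequenced from strand-preserving (dUTP) libraries with 50-cycle paired reads. Per the paper's methods and the submitters' processing notes, the authors trimmed reads (Trim Galore 0.4.4), aligned them to GRCm38 with STAR and counted them per gene with HTSeq, then divided the counts by a size factor per library. The deposited values are these normalised counts, a signal per gene and not raw counts, for 52459 genes, of which 48102 (91.7%) had a position in the annotation. In the 19 libraries used, values up to 500 reads were whole multiples of 1 step within a tolerance of 0.1 reads, which gave the reads of 18 libraries, the 9 untreated ones among them. In 1 IAA library the step was too near 1 to be used. The sources used here did not give the strand setting of the counting. The table's 19 other columns, of treatments not described here, were not used.

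Values were tested on log2(value + 1) with limma 3.58.1 (R 4.3.3), lmFit and eBayes with trend, with 1 mean per line over 9 libraries and genes with a mean of at least 10. Calls required a log2 difference above 1 in size and a p below 0.01 after Benjamini-Hochberg adjustment, the thresholds of the study. Each ± value is the standard error of that fit unless stated. The pairs were compared by the mean of CLC and LCL minus the mean of CTCF and CTCFL, the lines weighted equally. Alternatives were line as a random block, line means, other filters, a pseudocount of 5, TMM, replicate number as a block, each library left out, and the count tests edgeR 4.0.16 and DESeq2 1.42.0 on recovered reads. Leaving out the CTCF or CTCFL line and averaging the CLC libraries were chosen after seeing the data.

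The genes named are the 12 of largest difference in each direction that were called, did not overlap between pairs and reached a mean of 100 in the higher pair; the 5 of largest difference in each direction inside each pair; the 4 of largest gap per line and direction; and from each of 32 gene lists up to 4 called and 3 further members. Further list members, and the genes singled out from the other comparisons (mt-Atp6, Ntn1, Sh3bp5, Pdk1, Dnaja1), were named after their values were seen. Some genes that meet these rules are not reported here. The libraries and lists were chosen with earlier results of these data known. The fits were run on simulated data with known changes between the pairs. The simulated lines of a pair did not differ, so this could not check the effect of the spread between clones. The labels do not say that libraries came from separate cultures, so p-values measure the spread between libraries, which may be technical, and fold limits from 3 reads cover counting error only.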

Additional observations from a re-analysis of the deposited data

Results flagged for a closer look

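Of the genes of the lists and the comparisons above, 3 lay on opposite sides in untreated and in IAA libraries, with no overlap between the pairs of lines in either condition. They were singled out after their values were seen, and the share of all genes tested that did the same is not given here. In untreated cells alone, 23.7% of all genes lay above and 27.5% below without overlap. The difference between the conditions was not tested for any of these 3 genes. Pdk1 and Dnaja1 did not pass the threshold on size in either condition.

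Pdk1, an inhibitor of pyruvate dehydrogenase, had normalised read counts of 1759 and 1762 in the CTCF line, 1289, 1207 and 1216 in the CTCFL line, 1769 and 1823 in the CLC line and 2193 and 2176 in the LCL line without treatment. All CLC and LCL libraries lay above the others, though the lowest, at 1769 in the CLC line, was close to 1762 in the CTCF line. The log2 difference between the means of the pairs was 0.42. After IAA it was at 1205, 1085 and 1058 in the CTCF line, 1098, 960.1 and 985 in the CTCFL line, 589 and 552 in the CLC line and 839 and 863 in the LCL line, so the CLC and LCL lines lay below (log2 difference -0.61).

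Dnaja1, a cochaperone of HSP70, was at 2831 to 3304 in the untreated CTCF and CTCFL lines and 4208 to 4374 in the CLC and LCL lines (log2 difference 0.48). After IAA it was at 3269 to 3895 against 2537 to 3216 (log2 difference -0.33). Sh3bp5 was at 79.05 to 120.2 against 15.4 to 45.6 without treatment (log2 difference -1.80). After IAA it was at 15.9 to 36.2 against 43.7 to 91.2 (log2 difference 1.57). In untreated cells it was not called by the fit on line means (limma adjusted p = 0.0114).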

How the results depend on the processing

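The number of genes called between the pairs of untreated lines depended on how the lines entered the fit. It was 4283 with libraries as the unit, 2584 (789 higher, 1795 lower) with line as a random block (correlation within a line 0.629), 1979 with line means and 2738 with a mean of at least 50. With edgeR it was 4318, with DESeq2 4347, with the CLC libraries averaged 4073, with TMM 4293, with a pseudocount of 5 4140 and with no filter 4852. The split by direction moved as well, from 1158 higher and 3125 lower in the main fit to 1381 and 2912 with TMM. With a mean of at least 50 it was 891 higher and 1847 lower of 12667 tested. The shares of 7.19% and 19.4% set beside the lists are those of the main fit. Leaving out 1 library gave 4007 to 4286. After IAA the count was 4054, against 2439 with line as a random block, 1384 with line means and 2542 with a mean of at least 50, and 3757 to 4062 with 1 library left out. Inside the pairs, leaving out 1 library gave 276 to 504 genes for CTCFL against CTCF, lowest without CTCF replicate 2, and 316 to 599 for LCL against CLC, lowest without CLC replicate 2. For LCL against CLC the count was 287 with the CLC libraries averaged and 394 with no filter.

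With replicate number as a block, 4226 genes were called between the pairs, 425 for CTCFL against CTCF, 566 for LCL against CLC and 3980 after IAA. Libraries of different lines with the same number did not deviate together (r from -0.025 to 0.077), so the numbers do not pair them.

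Of 162 named genes called between the pairs, 110 were also called with line means, 124 with line as a random block, 158 with edgeR and 160 with DESeq2. The sign turned for Lefty1 (1.81) and mt-Tl2 (-1.12) without the CTCF line and for Uba1y (-0.70) without the CTCFL line. There are 2 lines in each pair, and clone, medium, batch and transgene cannot be told apart.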
